A study of Arabidopsis thaliana with 16 samples.

Results

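Seedlings of an Arabidopsis thaliana line with an inducible form of SPEECHLESS (SPCH) were set against wild-type seedlings, all collected 12 h after dexamethasone. Of the 16 libraries in the series, 8 entered this comparison, 4 of each line, chosen from the labels by line and time, and replicates 1 and 2 were separated from replicates 3 and 4 by a term for sequencing lane. The inducible seedlings were homozygous for ATML1pro:GR-SPCH1-4A-YFP: the promoter of ATML1, active in the epidermis, drives a SPCH variant with altered phosphorylation sites, joined to the hormone-binding part of the glucocorticoid receptor (GR) and to YFP. Bound dexamethasone lets the fusion into the nucleus. The wild type carried no transgene. Both lines were grown in shaken liquid medium with sucrose for 7 days after germination, and both received 100 μM dexamethasone at that age. The other 8 libraries came from the same 2 lines at 0 h, without treatment, and served here to show which differences were present before treatment. No group kept for 12 h without dexamethasone was analysed here. The labels name 1 inducible line and do not say that replicates came from separate cultures, so the p-values cover the spread among the libraries (all 16 share 1 estimate of it), which may be technical. Marker genes of leaf, guard cell, root and vascular tissue were all detected in the seedlings, and in such bulk tissue more cells of a type cannot be told apart from more RNA per cell.

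SPCH is a basic helix-loop-helix (bHLH) transcription factor that starts the stomatal lineage in the epidermis: it drives asymmetric divisions of young epidermal cells and acts with the related proteins ICE1 (SCREAM) and SCRM2. Secreted peptides such as EPF2, sensed by the receptor-like protein TMM and receptor kinases of the ERECTA family, limit how many cells enter the lineage through a kinase cascade that phosphorylates SPCH. Polarity proteins such as BASL and POLAR mark 1 side of the dividing cell, and the later bHLH factors MUTE and FAMA carry cells on to guard mother cells and guard cells.

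The 8 libraries at 12 h held 16251477 to 20456141 reads in genes. Of 20756 genes tested, 545 (2.63%) were higher and 869 (4.19%) were lower in the inducible line at an adjusted p under 0.05 (limma, Benjamini-Hochberg), and 143 of the higher and 299 of the lower genes were past 2-fold. The 1414 called genes were 6.81% of those tested. In 1044 of them the 4 inducible and the 4 wild-type libraries did not overlap, and 2002 of all genes tested (9.65%) had such separate groups. The median difference over all genes was 0.01 on the log2 scale. Between the sequencing lanes 8187 genes differed, in a test over all 16 libraries whose count cannot be set directly against that of 4 against 4. The first principal component, with 49.5% of the variance, separated the lanes. Within lanes, where each group has 2 libraries, 175 genes passed in lane 1 and 437 in lane 2. The count at 12 h fell to 706 with no lane term, to 854 without wild-type 12 h replicate 2, to 888 without inducible 12 h replicate 2 and to 932 without wild-type 12 h replicate 3. Values below are normalized read counts (reads divided by the library's size factor), and differences are inducible line minus wild type on the scale of log2(normalized count + 1), with the standard error (SE) in the fit. A gene that rose or fell was higher or lower in the inducible line than in wild type at the same time. No change with time is meant. The 15 falls and 15 rises called largest here are those among called genes with a mean of at least 50 normalized counts at 12 h and groups that do not overlap. For these genes the lack of overlap at 12 h was set by the choice and is no further result.

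Of 34 tested members of 5 lists of lineage genes, 10 rose in the inducible line and 0 fell, with a median of 0.18 against 0.01 for all genes, where 2.63% were called higher. The 10 were the transcription factors SPCH, ICE1, SCRM2 and FLP, the peptide EPF2, the receptors TMM, ERL1 and ERL2, and the polarity proteins BASL and POLAR. The count was 9 or 10 without any 1 library and 8 in either lane alone. The lists here and below were chosen with earlier results of these data known. Their counts beside the share of all genes therefore describe the lists and do not test them.

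The SPCH gene itself (AT5G53210, chr5:21586219-21589255, RefSeq TAIR10.1) had 211, 197, 158 and 233 normalized counts in the inducible libraries at 12 h, against 59.0, 68.5, 63.3 and 72.0 in wild type. The lowest inducible library stood above the highest wild-type library. The means were 200 ± 31.6 for inducible and 65.7 ± 5.73 for wild-type seedlings (SD, n = 4 each), a 2.99-fold difference (log2 1.58, SE 0.15, adjusted p = 1.7e-06; exact 2-sided permutation p = 0.0286, the smallest that 4 against 4 allows). Reads from the transgene count towards this gene. SPCH was already higher at 0 h, with 116, 144, 154 and 145 in inducible and 69.7, 56.1, 67.3 and 60.5 in wild-type libraries (log2 1.12, adjusted p = 0.0003), and the log2 difference at 12 h exceeded that at 0 h by 0.46 (SE 0.21), which did not pass (adjusted p = 0.24).

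The partners of SPCH rose at 12 h and did not differ beyond the threshold at 0 h. ICE1 (AT3G26744) had 1569, 1554, 1349 and 1499 normalized counts in the inducible line, against 762, 794, 754 and 686 in wild type, so that every inducible library was well above every wild-type one (log2 0.99, SE 0.08, adjusted p = 4.4e-07). SCRM2 (AT1G12860) had 917, 1125, 851 and 1137 in the inducible line, against 505, 592, 441 and 494 in wild type (log2 0.98, SE 0.11, adjusted p = 7e-06), again without overlap. At 0 h the log2 differences were -0.07 for ICE1 and -0.04 for SCRM2. FLP, a MYB factor that stops guard mother cells from dividing again, rose by less (log2 0.45, adjusted p = 0.031), with overlapping groups, and its call was lost without inducible 12 h replicate 1, 2 or 3, or wild-type 12 h replicate 1, 2 or 3. Apart from FLP, the factors of the list that act later were not past the threshold. MUTE had a log2 difference of -0.28 (adjusted p = 0.56), FAMA 0.15 (adjusted p = 0.61) and MYB88, the close relative of FLP, -0.06 (adjusted p = 0.87). MUTE was low throughout, with 18.4 to 38.4 normalized counts in inducible and 28.3 to 39.3 in wild-type libraries at 12 h.

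**Figure D1:**
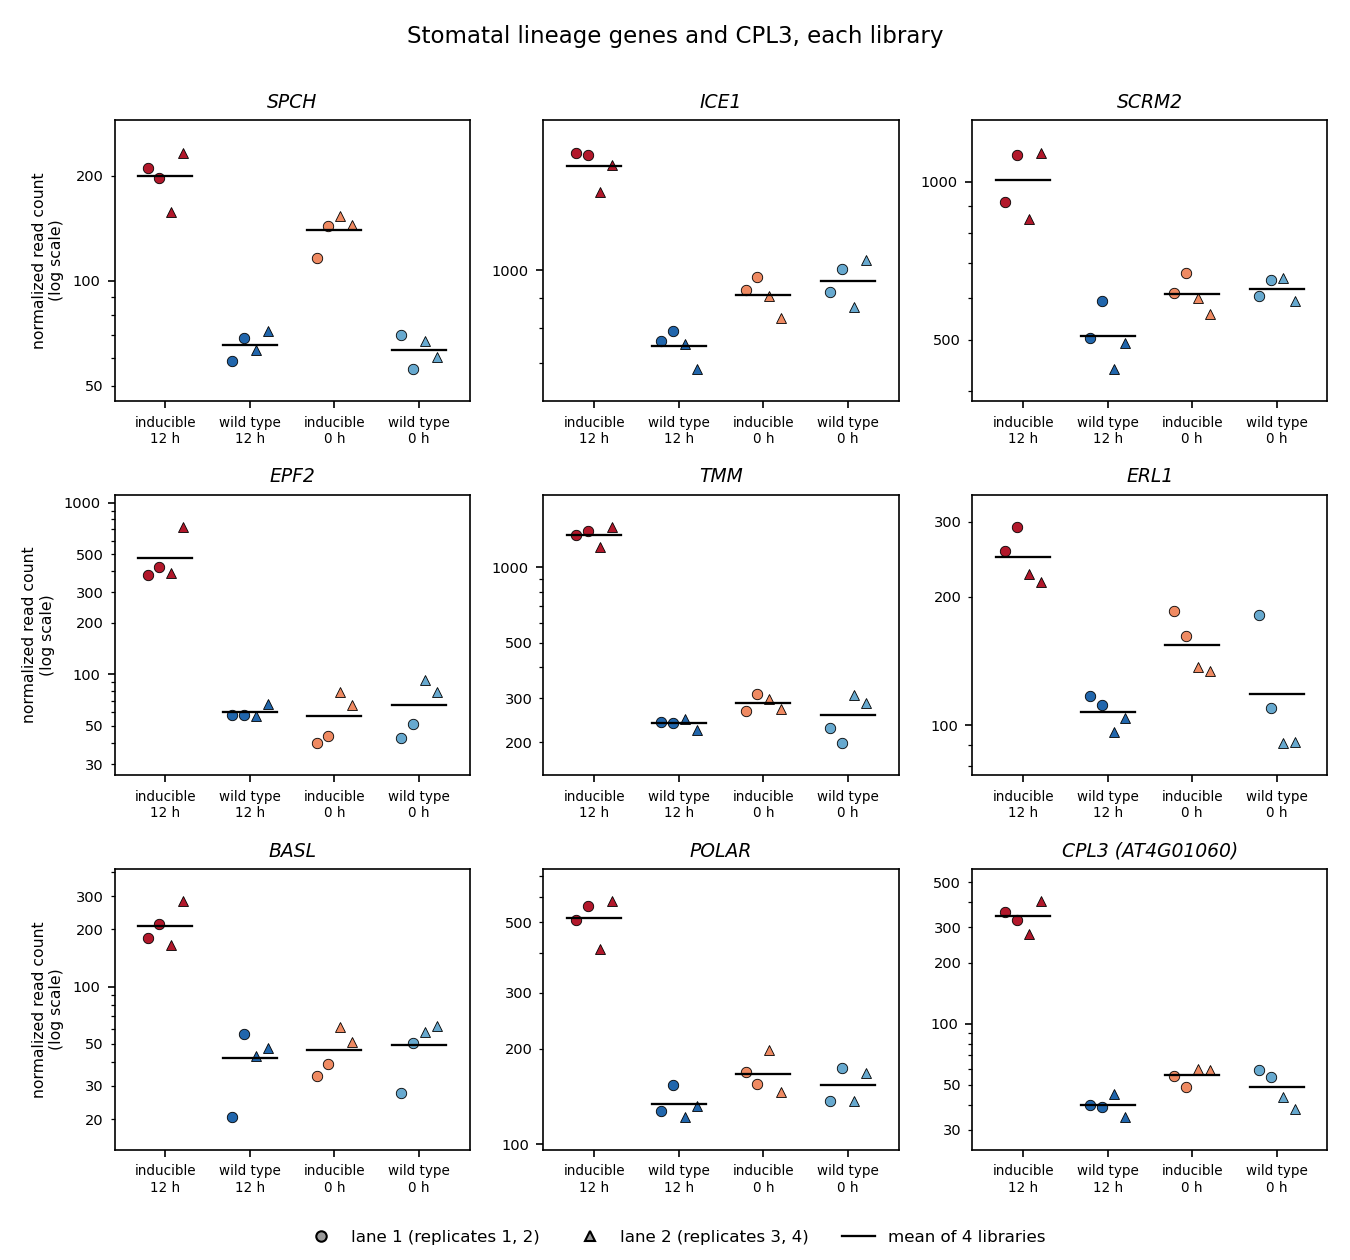
Normalized read counts (log axis) of 8 stomatal lineage genes and CPL3 in each library, for the inducible line and wild type at 12 h and at 0 h. Circles are lane 1, triangles lane 2 and bars the mean of 4 libraries; at 12 h every inducible library of TMM lies between 1204.9 and 1449.8 and every wild-type one between 222 and 248, while at 0 h the lines overlap.

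Among the peptides, EPF2, which restricts entry into the lineage, had 379, 421, 392 and 723 normalized counts in the inducible line at 12 h, against 57.8, 58.3, 57.2 and 67.3 in wild type. The inducible library of replicate 4 was the highest and the groups lay far apart, with means of 479 ± 164 and 60.2 ± 4.78 in inducible and wild-type seedlings (SD, n = 4 each), a 7.57-fold difference (log2 2.92, SE 0.19, adjusted p = 1.5e-08). Within lanes the log2 difference was 2.76 in lane 1 (adjusted p = 0.001) and 3.08 in lane 2 (adjusted p = 0.00028). EPF2 (AT1G34245) did not differ beyond the threshold before treatment, where the log2 difference was -0.19 (adjusted p = 0.54). The other 6 tested members of that list were not past the threshold: EPF1, which spaces stomata and enforces the order of divisions, had a log2 difference of 0.13, EPFL9 (STOMAGEN), which promotes stomata, 0.62, and the protease SDD1 -0.03. EPF1 was near the detection limit, at 2.94 to 15.2 normalized counts in inducible and 2.27 to 14.96 in wild-type libraries.

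Of the receptors, TMM (AT1G80080) had 1350.04, 1399.97, 1204.9 and 1449.84 normalized counts in the inducible line, against 240.4, 239, 248 and 222 in wild type. This was the smallest adjusted p among the 15 largest rises, 2.4e-10, with a 5.66-fold difference (log2 2.50, SE 0.12) that was 2.51 in lane 1 and 2.49 in lane 2. ERL1, a receptor kinase of the ERECTA family, had 256, 292, 227 and 217 in the inducible line, against 117, 111, 96.4 and 104 in wild type (log2 1.20, SE 0.15, adjusted p = 3e-05). ERL2 rose by 0.78 on the log2 scale (adjusted p = 0.003), with overlapping groups. ERECTA itself (ER) had a log2 difference of -0.09 (adjusted p = 0.72), and the co-receptors SERK1, SERK2 and BAK1 lay between -0.12 and 0.15. None of the 6 kinases of the cascade upstream of SPCH (YDA, MKK4, MKK5, MPK3, MPK6 and BIN2) passed, with log2 differences of 0.01 to 0.21.

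The polarity genes BASL and POLAR rose together, while the BRX family did not pass. BASL (AT5G60880) had 179, 213, 165 and 281 normalized counts in the inducible line at 12 h, against 20.4, 56.2, 43.2 and 47.7 in wild type (log2 2.35, SE 0.26, adjusted p = 1.1e-05), and POLAR (AT4G31805) had 509, 563, 413 and 582 in the inducible line, against 127, 153, 122 and 132 in wild type (log2 1.94, SE 0.14, adjusted p = 5.4e-08). Neither gene's groups overlapped, and at 0 h the log2 differences were -0.07 for BASL and 0.11 for POLAR. BRX and its 4 relatives had log2 differences between -0.25 and 0.38. The annotated span of POLAR overlaps AT4G31810 on the other strand by 310 bases, and that gene's log2 difference was 0.40; whether counting used strand is not given in the sources used here. For ICE1, SCRM2, EPF2, TMM, ERL1, BASL and POLAR the difference at 12 h exceeded that at 0 h in the test of the difference itself, by log2 0.77 (ERL1, adjusted p = 0.0499) to 3.11 (EPF2, adjusted p = 3.5e-06).

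Guard cell genes mark the end of the lineage. None of 11 (among them the channels KAT1 and SLAC1 and the myrosinase TGG1) passed, the median was 0.09, and their summed level was 17156 to 24941 in inducible and 16770 to 22433 normalized counts in wild-type libraries at 12 h.

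The promoters of the lineage genes with large rises were read because SPCH and its partners bind E-box motifs (CANNTG). The 250 bases before the annotated start were taken from RefSeq TAIR10.1 and are printed on the gene's strand, 5′ to 3′, with each CANNTG match in capitals, for EPF2 (chr1:12472618-12472867, plus strand), BASL (chr5:24489837-24490086, minus strand), POLAR (chr4:15385030-15385279, plus strand) and CPL3 (chr4:460145-460394, plus strand), whose rise is given next.
EPF2: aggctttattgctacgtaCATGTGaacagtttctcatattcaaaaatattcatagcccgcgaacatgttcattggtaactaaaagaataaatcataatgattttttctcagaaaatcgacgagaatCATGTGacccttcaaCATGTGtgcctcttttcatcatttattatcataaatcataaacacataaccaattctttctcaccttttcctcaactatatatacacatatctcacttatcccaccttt
BASL: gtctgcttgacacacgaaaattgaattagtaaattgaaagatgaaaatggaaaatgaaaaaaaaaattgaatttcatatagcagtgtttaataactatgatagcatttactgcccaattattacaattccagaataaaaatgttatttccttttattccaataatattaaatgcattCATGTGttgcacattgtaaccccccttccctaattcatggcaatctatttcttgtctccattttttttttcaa
POLAR: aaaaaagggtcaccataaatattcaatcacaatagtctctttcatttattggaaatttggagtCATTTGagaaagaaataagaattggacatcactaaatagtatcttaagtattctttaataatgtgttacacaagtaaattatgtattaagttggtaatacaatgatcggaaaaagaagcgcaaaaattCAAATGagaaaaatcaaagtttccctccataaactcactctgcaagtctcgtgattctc
CPL3: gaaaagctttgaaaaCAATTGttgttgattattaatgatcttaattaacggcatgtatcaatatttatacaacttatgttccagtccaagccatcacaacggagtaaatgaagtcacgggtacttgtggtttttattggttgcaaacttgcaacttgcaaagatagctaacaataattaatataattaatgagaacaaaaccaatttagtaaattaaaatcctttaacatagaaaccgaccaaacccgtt
EPF2 has the letters CATGTG 3 times, starting 232, 124 and 109 bases before the start, and BASL has them once, at 73 bases. POLAR has CATTTG at 187 and CAAATG at 59 bases, and CPL3 has CAATTG at 235 bases. The same windows of TMM, ICE1, SCRM2 and ERL1 hold no CANNTG. Read on both strands, CANNTG stood in 56.4% of 20640 windows of this length, in 56.5% of those of genes called higher and in 57.9% of those called lower. CATGTG, which is one form of CANNTG, stood in 11.2% of all windows, in 9.72% of those of higher and in 17.0% of those of lower genes. The G-box CACGTG, another form, stood in 7.15% of all windows, in 7.16% of those of higher and in 8.17% of those of lower genes. A match describes the letters only.

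Outside the stomatal lineage, called epidermal patterning genes lay in both directions. The rise with the second smallest adjusted p among the 15 largest was CPL3 (AT4G01060), a single-repeat MYB protein of the CAPRICE (CPC) family, whose members repress trichome and non-hair cell fates. It had 356, 325, 279 and 403 normalized counts in the inducible line at 12 h, against 39.7, 38.9, 45.2 and 34.6 in wild type, with no overlap and an 8.38-fold difference (log2 3.07, SE 0.17, adjusted p = 1.7e-09; 3.08 in lane 1 and 3.05 in lane 2). At 0 h the log2 difference was 0.20 (adjusted p = 0.46), and the test of the change between times gave 2.87 (adjusted p = 2.6e-06). A second member, ETC2, which represses trichomes, had 31.0, 44.1, 29.7 and 42.9 in the inducible line, against 11.3, 20.5, 5.02 and 22.4 in wild type (log2 1.43, adjusted p = 0.015); its call was lost without inducible 12 h replicate 2 or 4 or wild-type 12 h replicate 3. CPC, TRY, ETC1 and TCL2 were not past the threshold. Of the 6 tested members of the family 3 had a positive difference, and the list median was -0.23, while 2.63% of all genes were called higher.

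On the other side of that pathway, 4 of 11 tested genes for trichome and root epidermal fate fell and 0 rose, with a list median of -0.87 (4.19% of all genes were called lower). GL2, the homeodomain factor at the end of the pathway, had 63.0, 39.2, 64.2 and 59.0 normalized counts in the inducible line, against 138, 101, 132 and 98.2 in wild type, without overlap (log2 -1.05, SE 0.18, adjusted p = 0.0012). The bHLH factor GL3 had 12.6, 4.90, 7.66 and 13.4 in the inducible line, against 24.9, 27.6, 25.1 and 18.7 in wild type (log2 -1.31, adjusted p = 0.012). The MYB factor WER fell by 0.87 (adjusted p = 0.015) and the WRKY factor TTG2 fell by 0.95 on the log2 scale (adjusted p = 0.0082). Without inducible 12 h replicate 2 or wild-type 12 h replicate 2 the count was 2, and in either lane alone it was 0. WER also lost its call without wild-type 12 h replicate 3.

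Among epidermal identity factors of the HD-ZIP IV family 2 of 8 fell and 1 rose, with a median of -0.10, and 7 of 18 genes for cuticular wax fell. ATML1, the homeodomain factor whose promoter drives the transgene, had 1064, 998, 767 and 864 normalized counts in the inducible line, against 1387, 1668, 1339.8 and 1107 in wild type, without overlap (log2 -0.57, SE 0.10, adjusted p = 0.00081). The related HDG11 fell by 0.86 on the log2 scale (adjusted p = 0.0017), HDG5 rose by 0.66 (adjusted p = 0.015) with overlapping groups and lost its call without inducible 12 h replicate 2 or 4 or wild-type 12 h replicate 3, and PDF2, the closest relative of ATML1, had a log2 difference of 0.12, not past the threshold. In either lane alone none of the 8 passed. Of the wax genes 0 rose, against 4.19% of all genes called lower and 2.63% called higher, and the median was -0.28. The wax count of 7 lay between 5 and 8 without any 1 library and was 2 in lane 1 alone and 3 in lane 2 alone. CER1, which makes wax alkanes, had 95.9, 53.9, 40.2 and 75.9 in the inducible line, against 409, 274, 183 and 312 in wild type, with the highest inducible library below the lowest wild-type one (log2 -2.15, SE 0.25, adjusted p = 3.1e-05). CER1 had a log2 difference of -0.24 at 0 h (adjusted p = 0.55). CER4, which makes primary alcohols, had 136, 94.0, 107 and 98.3 in the inducible line, against 252, 269, 283 and 243 in wild type (log2 -1.27, adjusted p = 0.00021). KCS1 and CER2, of very-long-chain fatty acid elongation, fell by 0.76 and 0.79 at 12 h and were called lower at 0 h as well.

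Of 26 mitotic genes, 12 rose and 0 fell, against 2.63% of all genes called higher. All 26 had a positive difference and the median was 0.50. The cyclin CYCB1;1 had 214, 198, 179 and 232 normalized counts in the inducible line, against 143, 118, 111 and 119 in wild type (log2 0.74, SE 0.15, adjusted p = 0.0043). CYCB1;2 rose by 0.62 (adjusted p = 0.0028), the mitotic kinase gene CDKB1;2 by 0.65 (adjusted p = 0.0056) and CYCA1;1 by 0.56 (adjusted p = 0.0084). The summed level of the list was 7653 to 10227 in inducible and 5246 to 6770 in wild-type libraries at 12 h. The count was 7 without inducible 12 h replicate 1, 4 without inducible 12 h replicate 2, and 5 without wild-type 12 h replicate 2 or 3; it was 5 with no lane term, 0 in lane 1 alone and 2 in lane 2 alone. Among 9 D-type cyclins, CYCD3;1 and CYCD3;2 rose, by 0.67 (adjusted p = 0.017) and 0.56 (adjusted p = 0.0017), while the median of the 9 was 0.07, and CYCD3;1 lost its call without inducible 12 h replicate 4 or wild-type 12 h replicate 3. Of 16 DNA replication genes only the licensing factor CDT1B passed, with 224, 289, 262 and 301 in the inducible line, against 137, 154, 118 and 161 in wild type (log2 0.91, SE 0.15, adjusted p = 0.0005). The median of the replication genes was 0.17. None of the 9 tested CDK inhibitor genes passed, and their median was -0.06.

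**Figure D2:**
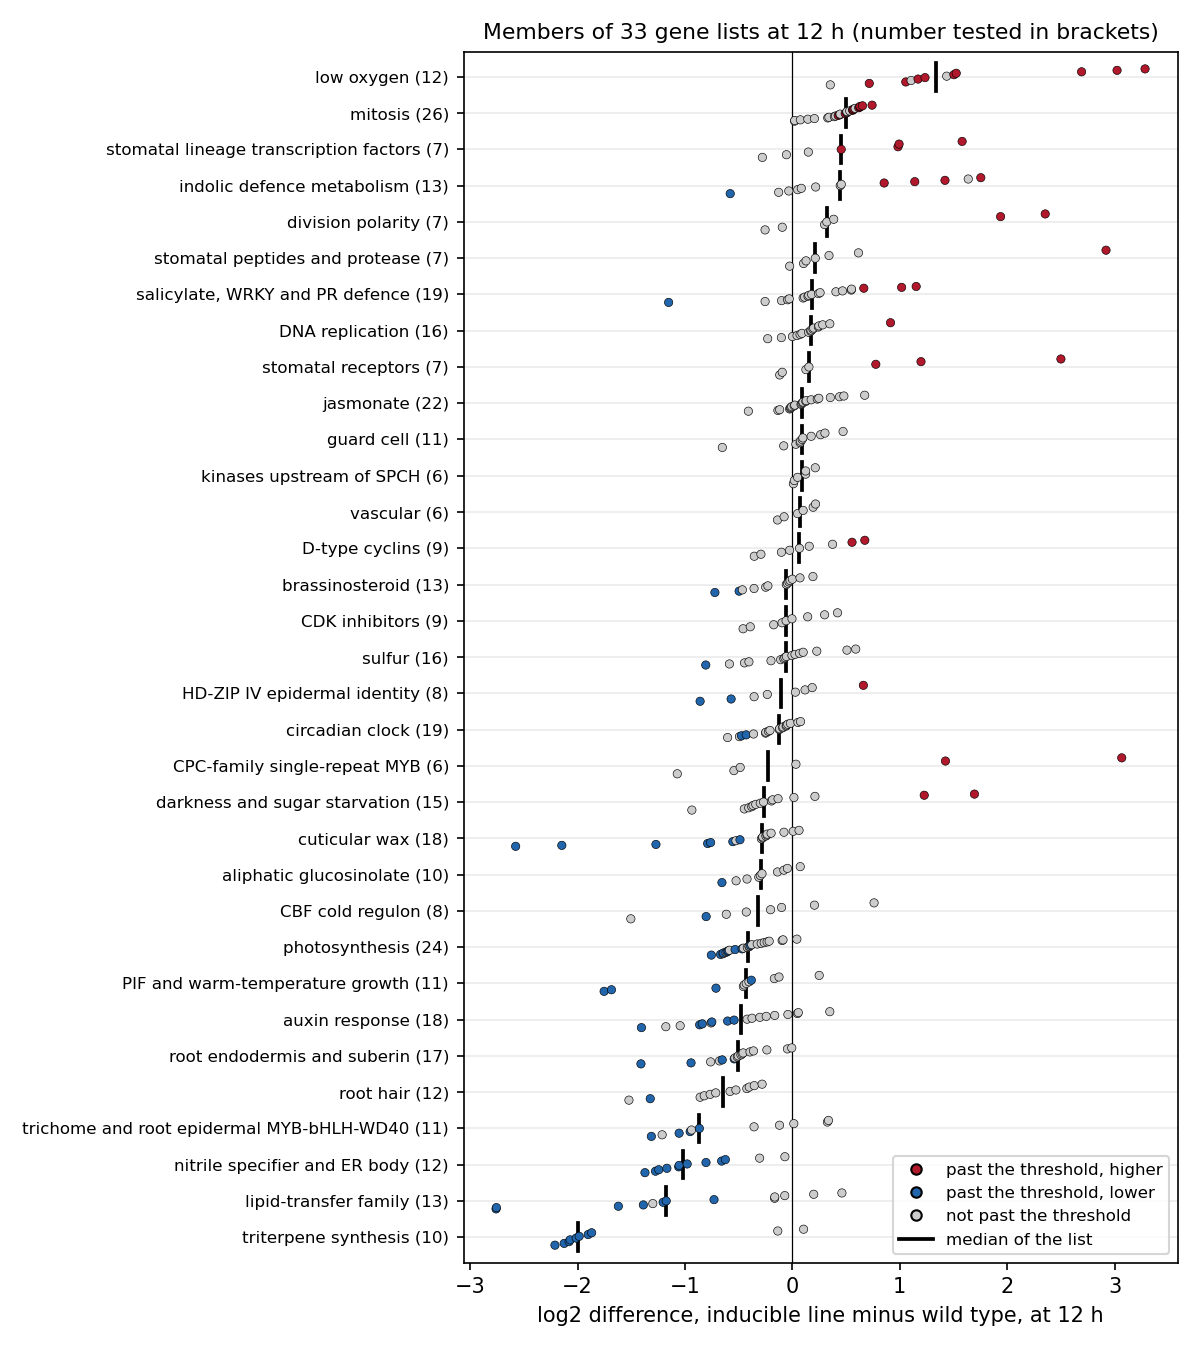
Log2 difference at 12 h, inducible line minus wild type, of every tested member of 33 gene lists, ordered by list median (black bar); red and blue points passed the threshold. The low oxygen list has the highest median, 1.34, and triterpene synthesis the lowest, -1.9997.

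Of the 33 lists, triterpene synthesis had the lowest median; in this pathway specialised root metabolites are made by genes that lie side by side on the chromosome. Of 10 genes, 8 fell and 0 rose, against 4.19% of all genes called lower, with a median of -1.9997 against 0.01 for all genes. The list was chosen with earlier results of these data known, so its share is a description and not a test. THAS1, which makes thalianol (AT5G48010, chr5:19456837-19461706), had 1006, 436, 322 and 422 normalized counts in the inducible line at 12 h, against 2037, 2671, 1688 and 2084 in wild type. THAS1 differed by log2 -2.08 (SE 0.26, adjusted p = 0.00013), with -1.81 in lane 1 and -2.35 in lane 2, and replicate 1 was the highest inducible library. Its neighbours THAA1, CYP705A5 and CYP708A2, which modify thalianol, differed by -2.07, -1.87 and -2.01. MRN1, which makes marneral from the same precursor (AT5G42600, chr5:17053453-17058245), had 678, 429, 242 and 275 in the inducible line, against 1707, 2963, 1086 and 1639.7 in wild type (log2 -2.21, SE 0.26, adjusted p = 0.00011), and the neighbouring CYP71A16 and CYP705A12 differed by -2.13 and -1.99. The squalene epoxidase gene SQE4 differed by -1.90, while SQE5 and SQE6 were not past the threshold (0.10 and -0.14). None of the 10 was called at 0 h, and 8 passed the test of the difference between times. The list's summed level was 2559 to 6765 in inducible and 10433 to 17031 in wild-type libraries at 12 h, and 7505 to 13460 in inducible and 8966 to 12534 in wild-type libraries at 0 h. The count of 8 held without any 1 library and in lane 2 alone, and was 6 in lane 1 alone.

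Genes of ER bodies and nitrile specifiers, a store of glucosidases and lectins used against herbivores, also fell. Of 12 tested, 10 fell and 0 rose, against 4.19% of all genes called lower, with a median of -1.02. This list too was chosen with earlier results known. NSP1, which directs glucosinolate breakdown towards nitriles, had 4646, 3166, 3591 and 4479 normalized counts in the inducible line, against 8794, 9261, 10979.6 and 8344 in wild type (log2 -1.24, SE 0.12, adjusted p = 3e-06). The lectin gene PBP1 had 20040.3, 13557, 15470.2 and 17271 in the inducible line, against 31268, 34525, 37056 and 34165 in wild type (log2 -1.06, SE 0.11, adjusted p = 5.1e-06). NSP4 and the glucosidase gene BGLU22 differed by -1.27 and -1.37. BGLU23 (PYK10), the main ER body glucosidase, falls outside the naming rule and was chosen after its values were seen: it had 59202, 39855, 55675 and 53849 in the inducible line, against 88065, 100433, 116685 and 103809 in wild type (log2 -0.98, SE 0.17, adjusted p = 0.0011). In none of these 3 genes with values did the groups overlap. The summed level of the list was 66638 to 97348 in inducible and 150381 to 186280 in wild-type libraries at 12 h. The count was 9 or 10 without any 1 library, 4 in lane 1 alone and 7 in lane 2 alone.

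In 2 root lists few genes passed, all of them lower. None of the 12 tested root hair genes and none of the 17 endodermis and suberin genes had a positive difference, the medians were -0.65 and -0.50, and 1 of the root hair and 4 of the endodermis genes passed as lower, against 4.19% of all genes: EXPA18, an expansin of root hairs (log2 -1.32, adjusted p = 0.0023), and FAR1 (-1.41), CASP2 (-0.94), PER64 (-0.65) and KCS2 (-0.54), which serve suberin and the Casparian strip. The root hair count was 6 without wild-type 0 h replicate 1, 4 without wild-type 12 h replicate 1, 3 without wild-type 0 h replicate 4, and 2 without inducible 12 h replicate 3 or wild-type 12 h replicate 2. It was 4 with the compared groups alone, 3 with DESeq2, 2 with TMM factors or the replicate block, 0 in lane 1 alone and 3 in lane 2 alone. The endodermis count was 8 without inducible 12 h replicate 1, 7 without wild-type 0 h replicate 4, 2 without inducible 12 h replicate 2 or 4 or in lane 2 alone, and 1 in lane 1 alone; KCS2 also lost its call without wild-type 12 h replicate 3. Their summed levels at 12 h were 1326 to 2305 in inducible and 2012 to 3520 in wild-type libraries for root hair genes, and 3764 to 6177 and 6096 to 7026 in inducible and wild-type libraries for endodermis genes. Of 6 vascular genes 0 passed, with a summed level of 3833 to 5705 in inducible and 3804 to 5309 in wild-type libraries. The part of tissue proportions in the falls of root genes was not tested.

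Some genes too faint for the 15 largest falls (a mean under 50 normalized counts) had larger ones, such as AT1G06100, a fatty acid desaturase family gene, which had 0.969, 0, 0 and 0.893 normalized counts in the inducible line, against 44.2, 23.5, 34.15 and 38.3 in wild type (log2 -4.66 with the added count of 1, adjusted p = 1.3e-08), and THI2.2, a thionin gene (log2 -4.14). Among the 15, the lipid-transfer family genes AT5G46900 and AT5G46890 are near neighbours and similar copies whose reads may be shared. AT5G46890 had 24.2, 18.6, 16.3 and 25.9 normalized counts in the inducible line, against 98.7, 152, 169 and 184 in wild type (log2 -2.76, SE 0.20, adjusted p = 5.4e-08), and AT5G46900 had 39.7, 17.6, 26.8 and 19.7 in the inducible line, against 125, 144, 257 and 194 in wild type (log2 -2.76, SE 0.24, adjusted p = 6.1e-07). In the lipid-transfer list, chosen with earlier results known, 7 of 13 fell and 0 rose, AT5G46890 and AT5G46900 among those that fell. The list median was -1.18, and 4.19% of all genes were called lower. In lane 1 alone 3 fell. The summed level of the list overlapped between the lines, at 70896 to 110140 in inducible and 84257 to 92855 in wild-type libraries at 12 h. The list members AT4G12510 and AT4G12520, neighbours on another chromosome, differed by -1.62 and -1.20. MSRB6, a methionine sulfoxide reductase gene, had 74.6, 74.5, 77.6 and 99.2 in the inducible line, against 382, 416, 371 and 422 in wild type (log2 -2.28, SE 0.21, adjusted p = 2.6e-06). The transporter gene AT1G72140 had 44.6, 49.0, 52.7 and 62.5 in the inducible line, against 202, 209, 218 and 248 in wild type (log2 -2.05, SE 0.13, adjusted p = 1.3e-08), and its neighbours PATL1 and AT1G72160 differed by -0.63 and -0.54. The remaining members of the 15, AT5G04120, AT3G21950, AT1G14960, AT5G35940, LCR85 and AT4G37700, differed by -2.56 to -2.14. Of the 15, AT5G46890 and AT1G14960 were also called lower at 0 h and the other 13 were not called there. The smallest fall of the 15 was -2.05 and the next in order was -2.01.

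**Figure D3:**
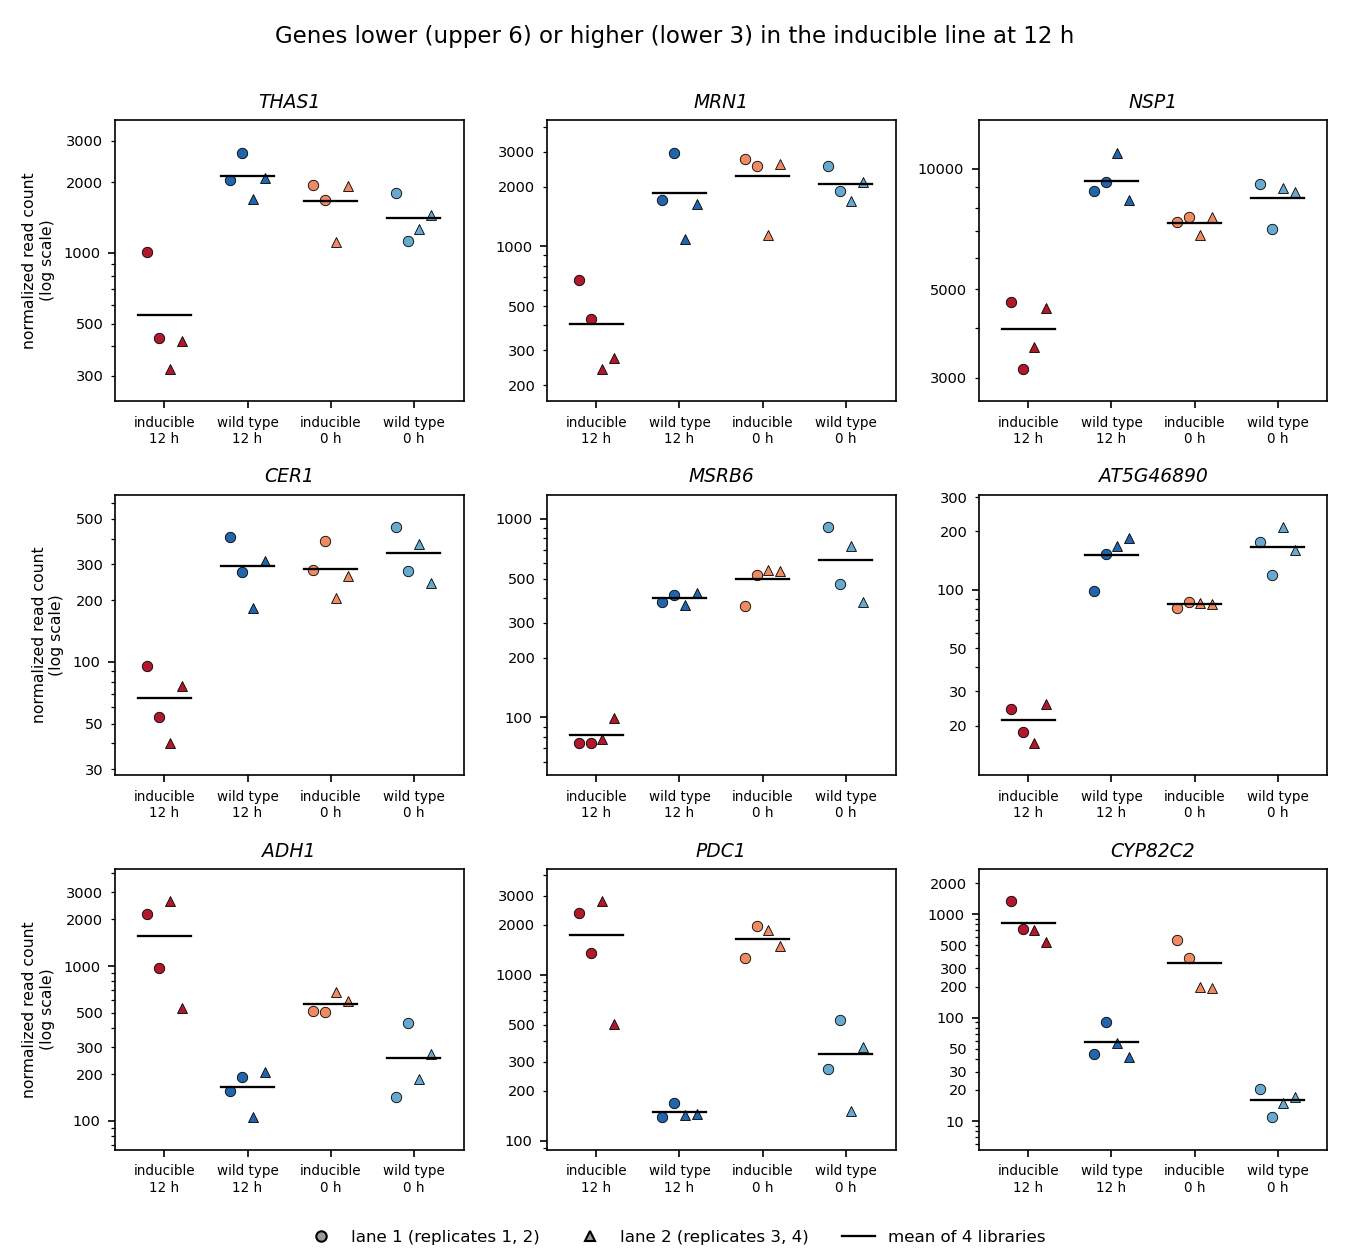
Normalized read counts (log axis) of 6 genes lower and 3 genes higher in the inducible line at 12 h, in each library of the inducible line and wild type at 12 h and at 0 h; circles are lane 1, triangles lane 2 and bars the mean of 4 libraries. ADH1 and PDC1 spread over 533 to 2618 and 507 to 2769 among the inducible libraries at 12 h, and CYP82C2 is separate at both times.

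Among genes of light, warmth and auxin responses a minority passed, all of them lower. PIF4, a bHLH factor that promotes growth in warmth and shade, had 218, 252, 186 and 199 normalized counts in the inducible line, against 297, 510.3, 385 and 252 in wild type. The highest inducible library was just under the lowest wild-type one (log2 -0.71, SE 0.17, adjusted p = 0.016; exact 2-sided permutation p = 0.0286, the smallest that 4 against 4 allows), and the call was lost without inducible 12 h replicate 3 or wild-type 12 h replicate 2 or 3. HFR1 (log2 -1.75), PRE1 (-1.69) and PIF5 (-0.38) also passed, so that 4 of 11 genes of the list of PIF and warm-temperature growth fell and 0 rose, against 4.19% of all genes called lower. That count was 2 with no lane term, with no filter, with the stricter filter, without inducible 12 h replicate 1 or 4 or wild-type 12 h replicate 1 or 3, 1 without wild-type 12 h replicate 2, and 0 in either lane alone. PRE1 lost its call without inducible 12 h replicate 1, 3 or 4 or wild-type 12 h replicate 1, 2 or 4, and PIF5 without any 1 of 10 libraries. Of 18 auxin response genes 6 fell and 0 rose (median -0.48), against 4.19% of all genes called lower. The count of 6 lay between 4 and 8 without any 1 library, and was 1 with no lane term and 0 in either lane alone. At 0 h 3 of the 18 were called lower, and 1 passed as lower in the test of the difference between times. Among the 6, IAA19, an auxin-induced repressor of auxin signalling, had 15.5, 32.3, 28.7 and 25.9 in the inducible line, against 61.2, 85.9, 78.3 and 49.5 in wild type (log2 -1.41, adjusted p = 0.0014), and was lower at 0 h too (-0.95, adjusted p = 0.019). Its relatives IAA3, IAA17 and IAA14 differed by -0.84, -0.86 and -0.75, and these 3 calls were lost with no lane term; IAA14 also lost its call without wild-type 12 h replicate 2. In photosynthesis 8 of 24 fell and 0 rose (median -0.41), against 4.19% of all genes called lower. LHCB2.1, a light-harvesting protein of photosystem II, differed by -0.75 (adjusted p = 0.002), LHCA4 by -0.67, LHCA3 by -0.61 and LHCB3 by -0.60. Before treatment 5 of the 24 were already called lower (median -0.24), against 6.3% of all genes. In the test of the difference between times 2 of the 24 passed as lower. The summed level of the photosynthesis list was 349236 to 448018 in inducible and 435080 to 584167 normalized counts in wild-type libraries at 12 h. Its count was 13 with DESeq2, 5 with no lane term or without wild-type 12 h replicate 3, 4 without inducible 12 h replicate 1 or 3 or wild-type 12 h replicate 2, 0 in lane 1 alone and 1 in lane 2 alone.

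In 3 further lists 1 or 2 genes fell and 0 rose, while 4.19% of all genes were called lower. Counts this small are not read as results about the lists. Of 13 brassinosteroid genes (median -0.06), BEE2, a bHLH factor induced by the hormone, had 226, 268, 252 and 232 normalized counts in the inducible line, against 285, 526, 436 and 405 in wild type (log2 -0.72, SE 0.14, adjusted p = 0.0029), and was lower at 0 h too (-0.54, adjusted p = 0.018). DWF4, an enzyme of brassinosteroid synthesis, fell by 0.50 on the log2 scale (adjusted p = 0.021), with overlapping groups, and lost its call with no lane term and without inducible 12 h replicate 2 or 4 or wild-type 12 h replicate 3 or 4. Of 19 clock genes (median -0.12), LNK1 and LNK2, which regulate clock and light genes, fell by 0.43 (adjusted p = 0.0045) and 0.47 (adjusted p = 0.035). LNK2 lost its call with no lane term, with no filter, and without inducible 12 h replicate 1, 3 or 4 or wild-type 12 h replicate 2 or 3. Of 10 aliphatic glucosinolate genes (median -0.29), MYB29, a factor that activates this pathway, had 201, 289, 202 and 254 in the inducible line, against 341, 406, 312 and 426 in wild type (log2 -0.66, adjusted p = 0.016), and its call was lost without inducible 12 h replicate 1 or 3 or wild-type 12 h replicate 2 or 4. In lane 1 alone none of these 5 genes passed, and in lane 2 alone only BEE2 did.

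Part of the 12 h difference was present before treatment. At 0 h 2641 of the 20756 genes differed between the lines (12.7%; 6.43% higher, 6.3% lower), and the groups of 8.53% did not overlap. That count was 414 with no lane term, 1141 with the compared groups alone and 1 in lane 1 alone. It was 976, 1557 and 1689 without inducible 0 h replicates 4, 3 and 1, and 4242, 1091 and 1637 without wild-type 0 h replicates 1, 4 and 3. The overlaps given next rest on the 2641. The 2 comparisons share no library, but they share the estimate of the spread and the lane term, so their calls are not independent. Genes called with the same sign at both times numbered 261, which is 18.5% of the calls at 12 h and 9.88% of those at 0 h. A further 20 were called with opposite signs. The difference itself changed between the times for 586 genes (2.82%), 191 upwards in the inducible line (0.92%) and 395 downwards (1.9%). The 586 became 106 with no lane term, 1224 with DESeq2, 3 in lane 1 alone and 117 in lane 2 alone. Without 1 library they became 264 (inducible 0 h replicate 4), 234 (inducible 12 h replicate 2), 1934, 369 and 338 (wild-type 0 h replicates 1, 3 and 4), and 288 and 283 (wild-type 12 h replicates 2 and 4). Of the 15 largest rises, 8 were also called higher at 0 h: CYP82C2, NIP2;1, AT1G26240, AT2G17850, PDC1, GLIP1, DIR5 and AT1G26380. Their log2 differences at 12 h were 2.197 to 3.78, and AT2G17850 lost its call without wild-type 12 h replicate 3. NIP2;1, an aquaporin gene, had 312, 147, 218 and 50.03 normalized counts in the inducible line, against 6.80, 10.2, 19.1 and 14.96 in wild type (log2 3.54, SE 0.50, adjusted p = 0.00037), and DIR5, a dirigent protein gene, had 250.04, 198, 306 and 206 in the inducible line, against 61.2, 34.8, 52.2 and 52.4 in wild type (log2 2.24, SE 0.23, adjusted p = 4.9e-06). Neither gene's groups overlapped, as the choice of the 15 required. The other 7 were CPL3, ADH1, EPF2, SUS4, AT1G19530, TMM and BASL, none called at 0 h. A missing call at 0 h does not show that the lines were alike then. Of these 7, CPL3, EPF2, TMM and BASL passed the test of the difference between times, and ADH1, SUS4 and AT1G19530 did not. The smallest rise of the 15 was 2.197 and the next in order was 2.18.

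**Figure D4:**
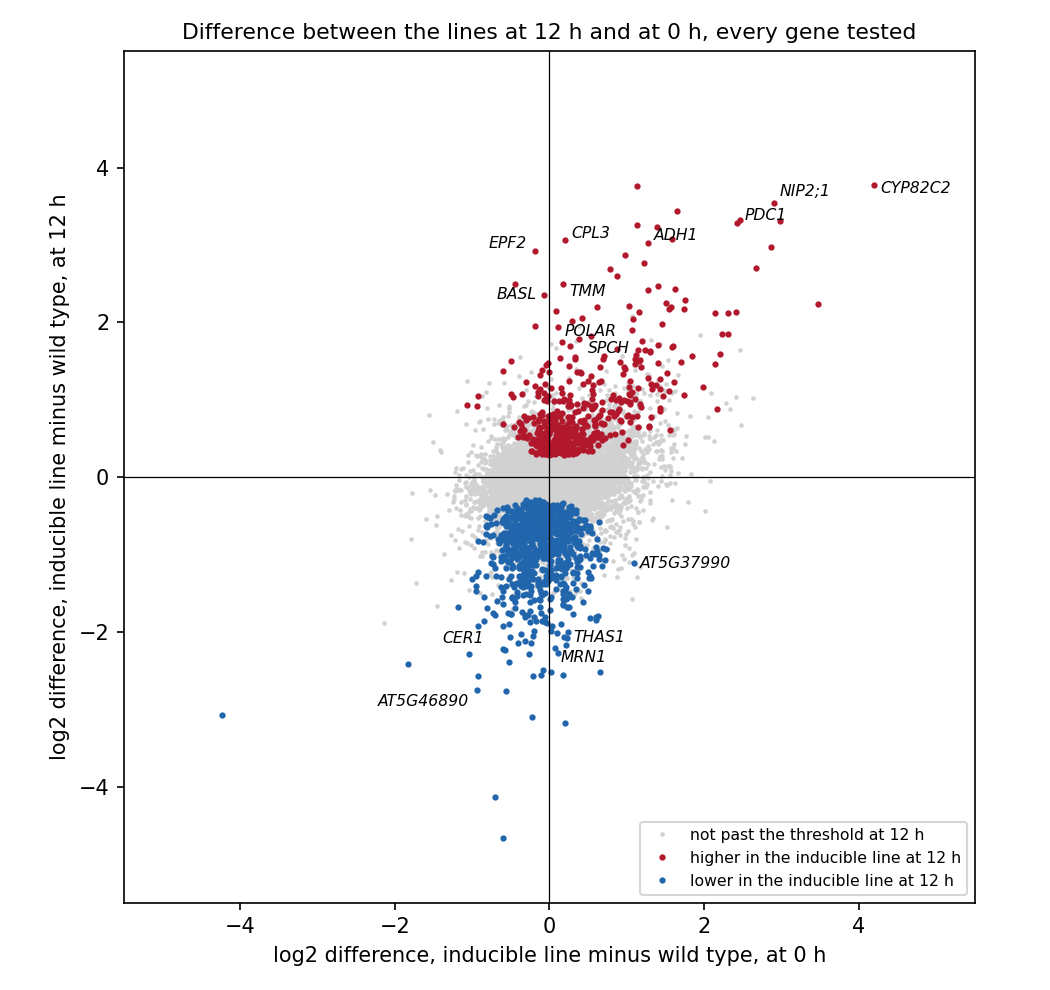
Log2 difference between the lines, inducible minus wild type, at 12 h (vertical) and at 0 h (horizontal) for every gene tested; red genes were higher and blue genes lower at 12 h. CYP82C2 lies high on both axes (3.78 at 12 h and 4.196 at 0 h), while CPL3 and EPF2 lie high at 12 h and near 0 at 0 h.

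CYP82C2, a cytochrome P450 gene of indolic defence compounds, had the largest rise at 12 h, with 1329.7, 719, 702 and 543 normalized counts in the inducible line, against 44.2, 89.99, 57.2 and 42.1 in wild type (log2 3.78, SE 0.29, adjusted p = 4.4e-07). At 0 h it had 567, 378, 199 and 192 in the inducible line, against 20.6, 10.9, 14.96 and 17.0 in wild type (log2 4.196, adjusted p = 1e-06). Both times showed complete separation, and the change between times was -0.42 (adjusted p = 0.62). CYP82C2 is not in the list of indolic defence metabolism, of whose 13 genes 4 rose and 1 fell at 12 h, and 6 rose and 0 fell at 0 h. Of all genes, 2.63% were called higher and 4.19% lower at 12 h, and 6.43% higher at 0 h. In lane 1 alone none of the 13 passed at 12 h. CYP81F2, which modifies indole glucosinolates, had 1329, 935, 1059 and 1031 in the inducible line, against 458, 498, 505 and 497 in wild type (log2 1.14, adjusted p = 0.00013). The MYB factors MYB122 and MYB51, which activate this pathway, rose by 1.75 (adjusted p = 0.002) and 0.85 (adjusted p = 0.0022), and MYB34, another factor of the pathway, fell by 0.58 (adjusted p = 0.008). PAD3, the last enzyme of camalexin synthesis, also rose (log2 1.42, adjusted p = 0.014); it falls outside the naming rule and was chosen after its values were seen. In the salicylate and WRKY list 3 of 19 rose (PR1, CBP60G and WRKY33) and ALD1 fell, against 10 higher at 0 h. The count of 3 was 5 without wild-type 0 h replicate 1 or with the compared groups alone, and 0 in either lane alone. PR1, a marker of salicylate defence, lost its call without inducible 12 h replicate 1, 2 or 3 or wild-type 12 h replicate 3 or 4, and ALD1, of pipecolate synthesis, without any 1 of 10 libraries. Jasmonate genes had 0 of 22 past the threshold at 12 h and 8 higher at 0 h.

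Low oxygen genes were higher in the inducible line at 12 h and in part before treatment, and the inducible libraries at 12 h differed widely among themselves. Of 12 genes, 9 were called higher and 0 lower at 12 h (median 1.34), against 2.63% of all genes called higher. At 0 h 5 of the 12 were called higher (median 1.07), against 6.43% of all genes. ADH1, alcohol dehydrogenase of fermentation, had 2155, 975, 2618 and 533 normalized counts in the inducible line, against 155, 192, 105 and 208 in wild type (log2 3.02, SE 0.47, adjusted p = 0.0021). PDC1, pyruvate decarboxylase, had 2358, 1344, 2769 and 507 in the inducible line, against 138, 169, 143 and 145 in wild type (log2 3.28, SE 0.47, adjusted p = 0.0013). Replicate 4 was the lowest inducible library in both, yet every inducible library was above every wild-type one. The sucrose synthase gene SUS4 had 1307, 495, 1143 and 176 in the inducible line, against 104, 114, 71.3 and 85.1 in wild type (log2 2.69, SE 0.46, adjusted p = 0.0031). The ethylene response factor gene HRE1 had 419.7, 304, 518 and 296 in the inducible line, against 161, 150.3, 185 and 140.2 in wild type (log2 1.23, adjusted p = 0.0013). The list's summed level was 12598 to 19565 in inducible and 6753 to 9836 in wild-type libraries at 12 h, and 16117 to 20942 in inducible and 7621 to 11445 in wild-type libraries at 0 h. None of the 12 passed the test of the difference between times. The count at 12 h was 8 to 10 without any 1 library, 6 with the compared groups alone and 8 in lane 1 alone. It was 0 in lane 2 alone, where ADH1 had a log2 difference of 2.99 (adjusted p = 0.24) and PDC1 3.03 (adjusted p = 0.29). The oxygen supply of the cultures was not recorded in the labels and its part was not tested.

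A few genes differed in opposite directions at the 2 times. SULTR1;2, the main sulfate uptake transporter of roots and the 1 of 16 sulfur genes past the threshold at 12 h (median -0.06), had 1174, 737, 977 and 975 normalized counts in the inducible line at 12 h, against 1989, 1628, 1314 and 1816 in wild type (log2 -0.81, adjusted p = 0.0083), and was higher at 0 h (0.62, adjusted p = 0.029), a change of -1.42 between times (adjusted p = 0.0049). AT5G37990, a methyltransferase gene, differed by -1.11 at 12 h (adjusted p = 0.011) and by 1.09 at 0 h (adjusted p = 0.012). Its groups overlapped at 12 h, where inducible replicate 1 had 337.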

How the data were processed

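Polyadenylated RNA was sequenced in 16 libraries; per the labels, replicates 1 and 2 of every group shared a lane and replicates 3 and 4 another. TAIR10, TopHat, SAMtools, HTSeq and DESeq2 are named, per the submitters' processing notes, with no versions or settings. Strand use in counting is not given in the sources used here. As deposited, each signal is a read count divided by a size factor per library, as read from the values: 100% of values were whole multiples of 1 read's worth, within 0.001 reads. The size factors were the authors', and 33602 genes were listed, 32835 of them matched to RefSeq TAIR10.1 for names and positions.

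The 20756 genes that reached 10 normalized counts in 4 libraries or more were tested with limma 3.58.1 (R 4.3.3) on log2(normalized count + 1), with 4 group means and lane, an intensity trend, robust variances and Benjamini-Hochberg adjustment over all genes tested at 0.05. All 16 libraries shared one estimate of the spread. Alternatives were no lane term, a replicate block, the compared groups alone, TMM factors, a pseudocount of 5, no filter or one at 50 counts, each lane alone, each library left out, and edgeR 4.0.16 and DESeq2 1.42.0 on the recovered reads. Depth was 16251477 to 22944391 reads in genes per library, and a count of 0 allows up to 1.85e-05% of a library; such limits cover counting error only. Replicate numbers pair libraries through the lane the labels give: same-number deviations from group means correlated at 0.521 to 0.718 over 24 pairs, and those of the same lane with another number at 0.533 to 0.765. No library was a duplicate of another. The scripts were tested on simulated data.

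The genes named are SPCH and PIF4, the 15 largest rises and the 15 largest falls among called genes with a mean of at least 50 normalized counts at 12 h and groups that do not overlap, the tested members of the stomatal lists, up to 4 called members with the smallest adjusted p of each other list, and runs of 3 or more neighbouring called genes of one direction. Of these, genes that only runs shorter than 5 outside the 30 largest changes would name are not all named, some members of named runs are given by the run's range, and the peptide, receptor and polarity members that did not pass are given partly by range. The 33 lists and the members were chosen with earlier results of these data known.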

Additional observations from a re-analysis of the deposited data

Results flagged for a closer look

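In 19 of 302 groups of 4 libraries, 1 library stood far from the other 3 by Dixon's criterion for its gap; chance gives about 1 in 20 groups. Among inducible libraries at 12 h, replicate 1 had 131 normalized counts of SDD1, 337 of AT5G37990, 981 of CYP708A2 and 1006 of THAS1. Replicate 2 had 370 of MYB88, and replicate 4 had 723 of EPF2, 490 of MLP43 and 99.2 of MSRB6. Among wild-type libraries at 12 h, replicate 1 had 458 of CYP81F2. Replicate 2 had 1257 of AT4G22212, 26.6 of AT4G22230 and 338 of AT5G38030. Replicate 3 had 31.1 of BCAT2, 5712 of COR47, 4779 of BGLU22 and 22.1 of AT1G70860. Replicate 4 had 477 of KCS2, 67.3 of EPF2 and 24.3 of DIN2.

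For 23 genes among the 30 largest changes and the stomatal lists, the difference between the lines at 12 h differed from that at 0 h in the test of that difference (limma, adjusted p from 4.7e-07 to 0.0499). Over all genes 2.82% passed this test. The 30 were chosen by their differences at 12 h and the test uses those libraries again, so passing was favoured and sizes may be overstated. The rises were larger at 12 h by 3.11 for EPF2, 2.87 for CPL3, 2.42 for BASL, 2.32 for TMM, 1.82 for POLAR, 1.07 for ICE1, 1.02 for SCRM2 and 0.77 for ERL1, on the log2 scale. Among lower genes, the change between times was -2.74 for AT5G04120, -2.37 for LCR85, -2.31 for THAS1, -2.28 for MRN1, -2.26 for THAA1, -2.19 for AT5G46900 and -2.02 for MSRB6. It was -1.90 for CER1, -1.86 for AT3G21950, -1.84 for AT1G72140, -1.81 for both AT5G46890 and CYP71A16, -1.74 for AT4G37700, -1.66 for AT1G14960 and -1.63 for AT5G35940.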

How the results depend on the processing

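Of the 127 named genes called at 12 h, none changed the sign of its difference in any alternative that tested it. The 127 were taken from the calls and the alternatives reuse the same libraries, so a kept sign was largely given by that choice. The signs of named genes not called were not compared. At 12 h, 1414 genes were called; 706 (250 higher, 456 lower) with no lane term, 175 (68 and 107) in lane 1 alone, 437 (135 and 302) in lane 2 alone, and 854 to 1758 with 1 library left out. At 0 h, 2641 genes were called; 414 (295 and 119) with no lane term, 1141 (650 and 491) with the compared groups alone, 1 (higher) in lane 1 alone, and 976 to 4242 with 1 library left out. For the difference between times, 586 were called; 106 (20 and 86) with no lane term, 1224 (533 and 691) with DESeq2, 3 (3 and 0, against 191 and 395) in lane 1 alone, 117 (28 and 89) in lane 2 alone, and 234 to 1934 with 1 library left out. The balance at 0 h, 1334 higher and 1307 lower, was 1302 and 1441 with edgeR, 1602 and 1773 with DESeq2 and 1342 and 1368 with the stricter filter. Lane alone leaves 2 libraries per group; the other causes were not tested. The other alternatives stayed within 1.5 times: at 12 h edgeR called 1398, DESeq2 1834, TMM factors 1411, a pseudocount of 5 1426, no filter 1269 and the stricter filter 1298. With the replicate block 1332 genes were called at 12 h (523 and 809), 2351 at 0 h and 518 for the difference, and of 127 named genes called, PRE1 alone lost its call. Of these 127, 90 were tested and called in all 25 alternatives with both lanes and 40 in every alternative; 10 were not tested under the stricter filter, 5 of them called in the other alternatives with both lanes; 77 lost it in lane 1 alone, 58 in lane 2 alone, 19 with no lane term and 10 with the compared groups alone, among them SUS4, GLIP1, PAD3 and AT2G17850. ERL2 and THAA1 lost it with no lane term. Depth limits genes such as EPF1 and HFR1, at under 31 counts.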

Other observations

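Some genes called at 12 h lay next to each other. Runs of 3 or more called genes of one direction, with at most 1 tested gene between them, numbered 4 among the 545 higher genes (13 genes) and 33 among the 869 lower genes (114 genes), with no value for the runs that gene order alone would give; 5 runs held 5 genes or more, and all 5 were lower. On chromosome 3, NSP1, NSP4, PBP1, JAL31, JAL33 and JAL34, coding for nitrile specifiers and jacalin-related lectins, differed by -1.48 to -1.06. On chromosome 1, MLP28, MLP34, MLP43, AT1G70860, AT1G70880 and AT1G70820, most of them coding for major latex-like proteins, differed by -2.50 to -0.51. On chromosome 4 the defensin-like genes LCR85, AT4G22212, AT4G22214, AT4G22230 and AT4G22235 differed by -2.16 to -1.07. LCR85 had 62.0, 25.5, 9.58 and 31.3 normalized counts in the inducible line, against 125, 167, 87.4 and 122 in wild type. A further run on chromosome 5, AT5G37990 to AT5G38030, differed by -1.57 to -0.74. Calls within these runs were lost without 1 library for AT1G70820 (inducible 12 h replicate 1 or 3, wild-type 12 h replicate 2 or 3), AT1G70860 and AT4G22235 (inducible 12 h replicate 4, wild-type 12 h replicate 2 or 3), and AT5G38010 (inducible 12 h replicate 2 or 4, wild-type 12 h replicate 2 or 4).

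The fifth such run lies on chromosome 1 and holds SAUR63 and its copies AT1G29420, AT1G29430, AT1G29450 and AT1G29460, small auxin-induced genes, which differed by -1.81 to -0.96. AT1G29460 had 11.6, 9.80, 11.5 and 6.25 normalized counts in the inducible line, against 27.2, 54.2, 47.2 and 22.4 in wild type. These copies are alike enough that reads may be shared between them, and AT1G29420 lost its call without any 1 of 7 libraries. Within the cold regulon list, COR47, a dehydrin gene, had 2530, 2414, 2616 and 2481 in the inducible line at 12 h, against 3979, 3898, 5712 and 4151 in wild type (limma log2 -0.80, SE 0.10, adjusted p = 6.1e-05), and was lower at 0 h too (-0.66, adjusted p = 0.0011); it was the only one of 8 members past the threshold at 12 h. In the darkness and sugar starvation list DIN2, a glucosidase gene, and BCAT2, of branched amino acid breakdown, rose by 1.70 and 1.23 on the log2 scale, while the other 13 members were not past the threshold. The list median was -0.27 and 4 of the 15 members had a positive difference, while 2.63% of all genes were called higher. With the compared groups alone 1 member was called higher and 1 lower. BCAT2 lost its call without inducible 12 h replicate 4 or wild-type 12 h replicate 3.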
